A study of Mus musculus with 17 samples.

Results

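How far hearts differed in Nppb and the genes that ran with it after the same operation was described in 8 of the 17 samples of the series. These were the TAC samples without S18, ranked by the level of Nppb. The labels do not give the pressure load of each mouse, so differing load and differing response cannot be told apart. Nppb encodes B-type natriuretic peptide, which the ventricle makes under wall stress. The samples were chosen by surgery and the order was taken from Nppb, so correlation with Nppb is given as a description and was not tested. All mice were male C57Bl/6J aged 7 to 8 weeks at surgery, and RNA came from the apex of the left ventricle 3 weeks after transverse aortic constriction (TAC), which narrows the aorta and loads the left ventricle, or after a sham operation. From week 1 the mice were given 6 oral gavages over 2 weeks, of either saline (Veh) or 50 μg/kg of 29P, an RGD-mimetic prodrug directed at αvβ3-integrin. Each sample came from 1 mouse. After TAC 6 samples had received 29P and 3 Veh, and after sham surgery 3 had received 29P and 5 Veh, and the ranked samples were 5 TAC 29P and 3 TAC Veh.

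The study's authors had left out 1 TAC Veh sample because it clustered with Sham mice, besides samples with too few reads; its Nppb level was not analysed here. S18, a TAC 29P sample, was left out of the ranking because it held 514 CPM (reads of a gene scaled to the library's total) of Bmp10, 518 CPM of Myl4 and 335 CPM of Myl7, which are defining genes of the atrium. In the 8 ranked samples Bmp10 was at 0 in all 8 and Myl4 was between 1.17 and 4.43 CPM. The ventricular cardiomyocyte markers Myl2 (4107 to 5152 CPM), Myh6 (10367 to 16506 CPM) and Actc1 (6103 to 7191 CPM) were high in every one. In bulk tissue, fewer cells of a type and less RNA per cell cannot be told apart.

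A ventricle that has to pump against a narrowed aorta thickens its wall. Cardiomyocytes return to genes of the fetal heart, among them both natriuretic peptides, β-myosin (Myh7) and skeletal α-actin (Acta1), while fibroblasts lay down collagen. Fatty acid oxidation, the main fuel path of the adult heart, is commonly lowered in such hearts. Nppb is used in the clinic as a measure of heart failure.

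The 250 bases before the RefSeq start of 3 genes that rose with Nppb or rank it, Nppb, Nppa and Ankrd1, and of Acadm, a fatty acid oxidation gene that fell, are shown in the build GRCm38.p6 to let their sequence be read beside the values below. Capitals mark 4 motifs searched on both strands, the MCAT element (GGAATG), the GATA element (AGATAA or its variants AGATAG and also TGATAA and also TGATAG), the AP-1 element (TGACTCA) and the half-site of oestrogen-related receptors (AAGGTCA); no hits overlapped in these 4 windows.
Nppb, chr4:147985650-147985899, plus strand: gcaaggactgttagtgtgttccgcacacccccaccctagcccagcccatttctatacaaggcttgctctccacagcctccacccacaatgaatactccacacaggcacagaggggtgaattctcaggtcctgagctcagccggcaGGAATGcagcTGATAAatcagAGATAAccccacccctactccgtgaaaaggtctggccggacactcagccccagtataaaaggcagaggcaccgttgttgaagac
Nppa, chr4:148000472-148000721, plus strand: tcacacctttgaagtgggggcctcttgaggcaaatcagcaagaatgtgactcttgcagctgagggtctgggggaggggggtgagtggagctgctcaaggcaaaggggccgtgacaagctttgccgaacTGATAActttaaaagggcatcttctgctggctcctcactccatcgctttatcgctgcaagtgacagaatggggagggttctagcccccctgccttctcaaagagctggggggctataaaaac
Ankrd1, chr19:36119845-36120094, minus strand: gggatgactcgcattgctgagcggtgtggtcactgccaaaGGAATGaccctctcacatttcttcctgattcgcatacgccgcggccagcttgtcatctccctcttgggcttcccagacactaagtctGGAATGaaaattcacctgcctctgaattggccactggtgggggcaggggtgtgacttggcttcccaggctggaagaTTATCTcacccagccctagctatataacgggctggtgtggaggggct
Acadm, chr3:153944644-153944893, minus strand: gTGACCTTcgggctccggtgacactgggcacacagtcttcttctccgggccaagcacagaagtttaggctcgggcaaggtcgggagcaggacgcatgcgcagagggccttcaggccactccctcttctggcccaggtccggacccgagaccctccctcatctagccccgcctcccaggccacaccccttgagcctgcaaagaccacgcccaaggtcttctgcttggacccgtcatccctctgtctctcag
The RefSeq start lay 112 bases inside Nppb and 255 bases inside Ankrd1 as the deposited file places these genes, and at the file's own start for Nppa. Nppb held an MCAT element 105 to 100 bases before the start and GATA elements at 95 to 90 and 84 to 79. Nppa held a GATA element at 122 to 117, and Ankrd1 held MCAT elements at 210 to 205 and 123 to 118 and a GATA element, read on the other strand, at 47 to 42. The only hit in Acadm was the receptor half-site, read on the other strand and ending 243 bases before the start. Of all 32851 RefSeq promoters, 12.6% held the MCAT element, 26.5% a GATA element, 4.46% the AP-1 element and 4.08% the receptor half-site. The shares were 12.1%, 17.8%, 4.33% and 2.29% in the 1177 promoters matched to genes that rose with Nppb (917 genes matched), and 10.9%, 16.9%, 3.09% and 2.81% in those of all genes compared. In the 341 promoters of the genes that fell (266 matched) they were 9.68%, 18.5%, 2.93% and 2.93%. A match of letters is a description and not a binding site.

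Nppb (chromosome 4 of mm10, 147985788 to 147987205) was 428 CPM in S1, 602 CPM in S8, 610 CPM in S12, 634 CPM in S11, 649 CPM in S9, 814 CPM in S3, 883 CPM in S2 and 1189 CPM in S16. The range was 2.78-fold, or 1.47 on the log2 scale. S1 stood at the low end and S16 at the high end, while S8, S12, S11 and S9 lay within steps of 0.02 to 0.05 on the log2 scale, a ratio of at most 1.04 between neighbours. Counting error on Nppb was 0.67% to 1.022% of its level in these samples, so the middle 4 ranks rest on differences of a few percent. S12, S2 and S16, at ranks 3, 7 and 8, were the Veh samples. In the 8 Sham samples Nppb was between 96.8 and 447 CPM, so S1 was below the highest of them, Sham Veh S19 at 447 CPM, which held atrial transcripts. The other 7 Sham samples reached 226 CPM at most.

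Whether mean Nppb differed by treatment was asked by an exact permutation test, since the ranking did not use the treatment. The TAC Veh sample that the authors left out for clustering with Sham mice is missing from it. The effect of that choice on the difference was not tested. Mean log2 CPM of Nppb was 9.26 ± 0.33 (SD, n = 5) in TAC 29P and 9.75 ± 0.48 (SD, n = 3) in TAC Veh, a difference of -0.49 with overlapping groups (exact two-sided permutation p = 0.179 over 56 divisions, where the smallest possible is 0.0179). Without S12 the difference was -0.74 and the exact permutation p was 0.0476, the smallest that 21 divisions allow, and without S16 the difference was -0.26 and the exact permutation p was 0.381. Within Sham the difference was -0.99 (exact two-sided permutation p = 0.0179, the smallest possible), and without S19 and S20, the Sham Veh samples with atrial transcripts, it was -0.74 (exact two-sided permutation p = 0.1, the smallest possible with 3 against 3). The 29P effect on Nppb in TAC minus that in Sham was 0.49 on the log2 scale (SE 0.37), within 2 SE of 0. Nppb was higher in TAC than Sham by 2.06 on the log2 scale (SE 0.19, limma adjusted p = 4.74e-06, 8 against 8 samples).

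**Figure D1:**
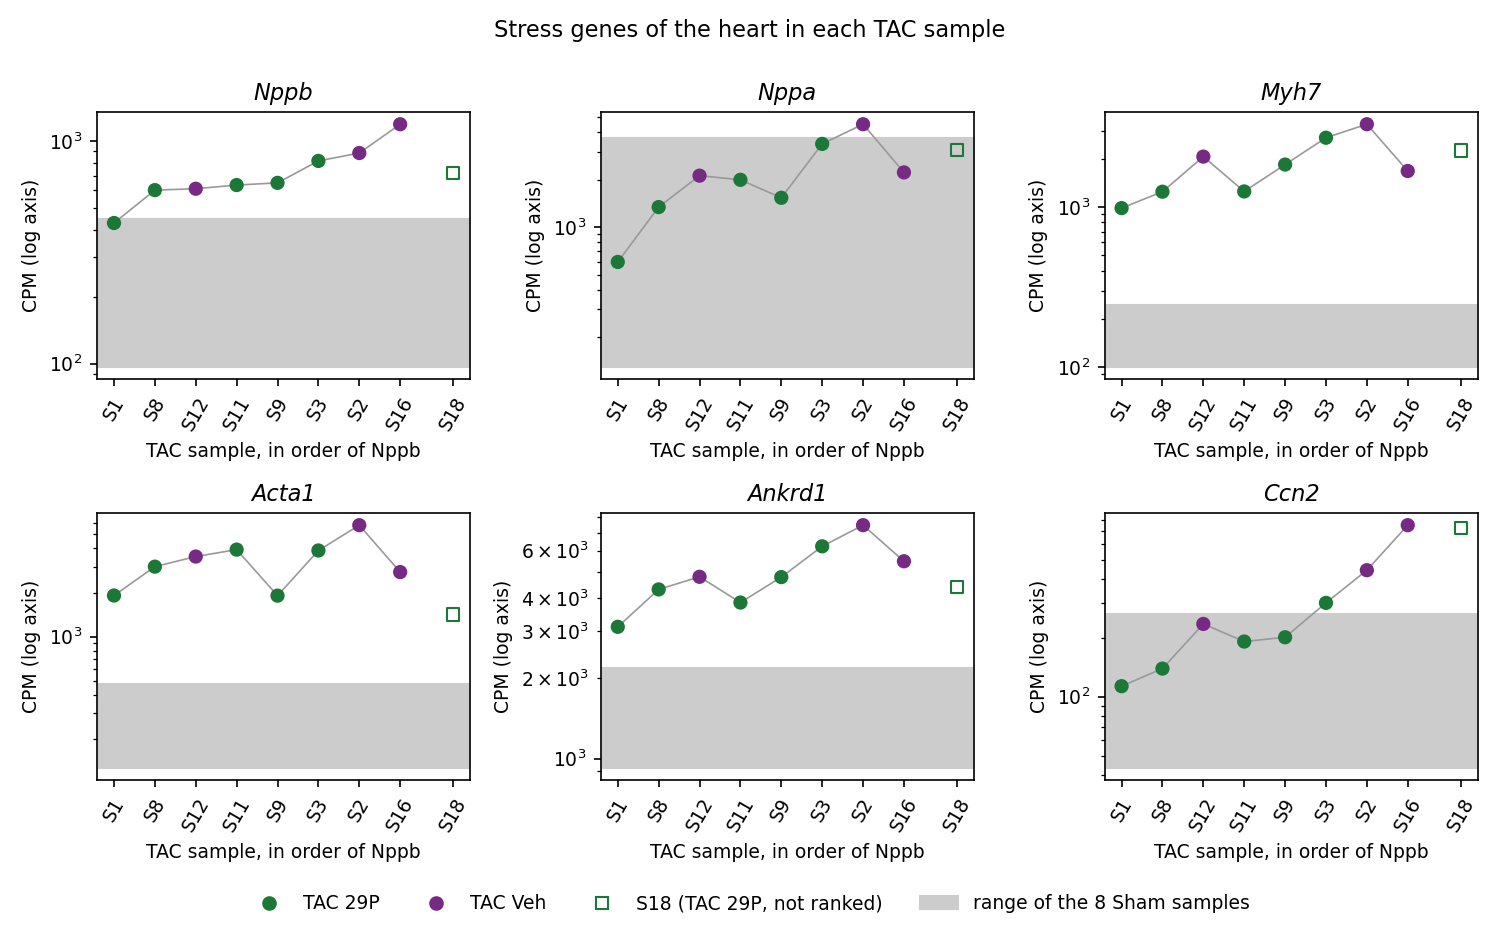
CPM of 6 genes (log axis) in the 8 TAC samples in order of Nppb, coloured by treatment, with S18 as an open square and the range of the 8 Sham samples in grey. Nppa, Myh7, Acta1 and Ankrd1 were highest in S2 rather than in S16, Ccn2 was highest in S16, and Myh7 and Acta1 lay above the Sham range in all 8.

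Of 21798 genes in the file, 13276 had at least 1 CPM in all 8 samples, and 13275 were compared with Nppb. A gene is said here to rise with Nppb at a Spearman rho of at least 0.8 and to fall with it at -0.8 or lower. By that limit 1232 genes rose (9.28% of those compared) and 366 fell (2.76%). The direction of this surplus depended on the scaling. CPM uses library totals, of which the mitochondrial-encoded genes took 23.6% to 29.4% in these samples, and that share fell along the order (rho = -0.76). With TMM factors, which centre the bulk of genes, 566 genes rose and 884 fell, and the median rho over the genes first compared moved from 0.24 to -0.07. The share of those genes with a rho above 0 moved from 66.1% to 44.8%. Of the 1232 rising genes 1222 kept a rho above 0 with TMM factors and 489 kept the limit, and of the 366 falling genes all 366 stayed below 0 and 317 kept the limit. At the filter's edge, Rpl7a-ps5 with a lowest value just above 1 CPM was compared and Gm48768 with a lowest value of 0.9995 CPM was not.

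**Figure D2:**
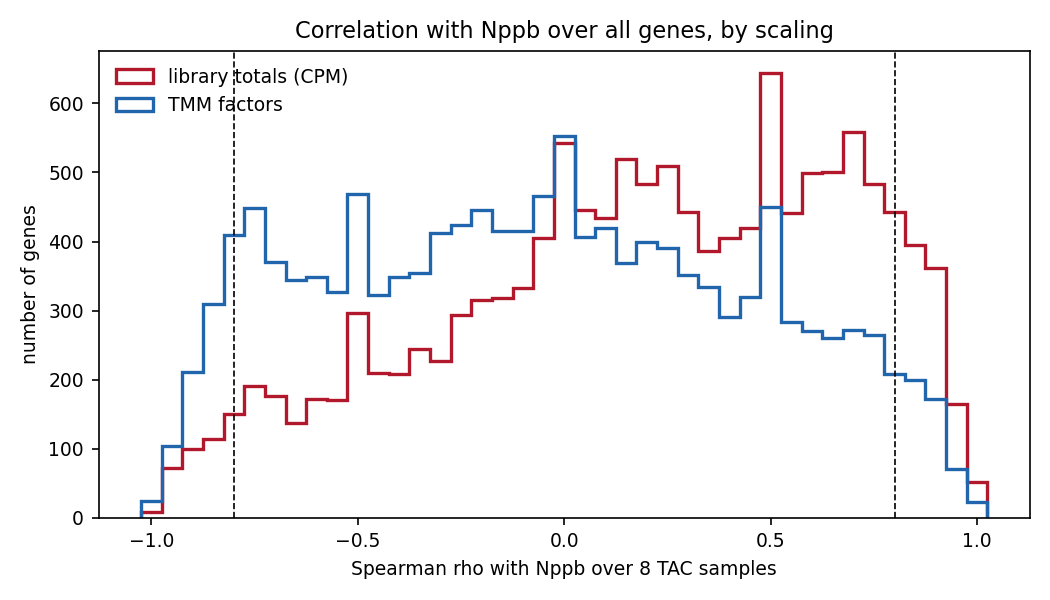
Number of genes by Spearman rho with Nppb over the 8 TAC samples, for library totals (CPM) and for TMM factors, with dashed lines at the limits of -0.8 and 0.8. The curve for library totals leans to the right with a median of 0.24, and the curve for TMM factors has a median of -0.07.

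Other measures of the samples moved with the order and their part in it was not tested. Estimated depth, 18.7 to 22.4 M reads, fell with Nppb (rho = -0.86), from S1 with the most reads to S16 with the fewest. Ribosomal protein genes took 0.63% to 0.84% of each library (rho = 0.67), and haemoglobin transcripts summed to 1027 to 4933 CPM (rho = 0.55) and were highest in S2. The animal numbers in the labels fell into runs, of which 6 ranked samples belonged to the first and S12 and S16 to others. Within that first run all 1232 rising genes had a rho above 0 and all 366 falling genes one below 0, and within the 5 TAC 29P samples the same held. These subsets are part of the 8 samples that chose the genes, so this adds no separate evidence. Over all genes compared, 74.6% were above 0 within the run and 68.5% within TAC 29P. After treatment means were removed from every gene and from Nppb, 618 genes were past the upper limit and 269 past the lower, of which 472 and 167 were among those above.

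The natriuretic peptide and stretch genes of the cardiomyocyte ran with Nppb but not in full step. Besides Nppb the list held 14 genes that were compared, of which 4 rose (Nppa, Ankrd1, Rcan1 and Synpo2l), none fell, and all 14 had a rho above 0 (median 0.67, against 0.24 over all genes; 0.60 against -0.07 with TMM factors). Of all genes compared 9.28% rose and 66.1% had a rho above 0. With treatment means removed the median of the list was 0.45. Tnni1 was below 1 CPM and was not compared. The levels were highest in S2 for 11 of the 14 and in S16 for 3.

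Nppa, which encodes atrial natriuretic peptide, was 601 CPM in S1, 1340 CPM in S8, 2121 CPM in S12, 1996 CPM in S11, 1534 CPM in S9, 3373 CPM in S3, 4498 CPM in S2 and 2224 CPM in S16. It spanned 7.49-fold, wider than Nppb, and S16 fell back to the level of S12 (rho = 0.83, Pearson r = 0.75, and r = 0.92 without S1 and S16, the samples farthest from the median of Nppb). Myh7, the slow β-myosin, was 983 CPM in S1, 1245 CPM in S8, 2065 CPM in S12, 1250 CPM in S11, 1841 CPM in S9, 2710 CPM in S3, 3292 CPM in S2 and 1678 CPM in S16. Its rho was 0.67, under the limit, yet it followed Nppb in exact order through the 6 samples of the first run. With treatment means removed the rho was 0.33 for Myh7 and 0.55 for Nppa. Acta1 was between 1905 CPM in S9 and 5763 CPM in S2 and had a rho of 0.29, the lowest of the list. Ankrd1, a stretch-responsive titin-binding protein, rose from 3114 CPM in S1 to 7479 CPM in S2 and was 5479 CPM in S16 (rho = 0.81, r = 0.79, r = 0.93 without S1 and S16).

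Rcan1, which is induced by calcineurin and holds it back, was 152 CPM in S1, 116 CPM in S12 and 353 CPM in S2 (rho = 0.81). Synpo2l, an actin-binding Z-disc protein, ran from 247 CPM in S1 to 563 CPM in S2 (rho = 0.81). For Xirp1, a protein of the intercalated disc, S16 stood apart. It lay between 164 and 224 CPM in 7 samples and was 559 CPM in S16, so its Pearson r of 0.77 fell to 0.19 without S1 and S16. Fhl1 and Xirp2 were highest in S2, at 585 and 5914 CPM, each with a rho of 0.76. Csrp3, Des, Nes, Flnc and Ankrd23 had a rho between 0.38 and 0.60.

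All 14 genes of this list were higher in TAC than in Sham samples in a limma fit of all 16218 genes tested (adjusted p of 0.05 or less; 12 of 14 with TMM factors), where 55.5% of the genes compared were called higher and 3.27% lower. The order among TAC samples does not enter that contrast, although the same 8 samples do. Over all genes tested the median TAC difference was 0.34 on the log2 scale with library totals and 0.01 with TMM factors, so differences here are read against that shift; with TMM factors 16.3% of the genes compared were higher and 16.2% lower. Myh7 was higher by 3.77 (SE 0.23, adjusted p = 1.28e-07) and Acta1 by 3.82 (SE 0.25, adjusted p = 1.98e-07), the widest of the list, although neither reached the limit along the order. Their lowest TAC values, 983 and 1905 CPM, were above their highest Sham values of 242 and 473 CPM.

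Matrix genes had higher rho than the cardiomyocyte stress genes, a difference that was not tested. Of 30 matrix genes compared, 21 rose, none fell and all 30 had a rho above 0, beside 9.28% rising and 66.1% above 0 of all genes. The median of the list was 0.86, and 0.83 with TMM factors. With treatment means removed the median was 0.76. Spp1 and Cthrc1 were below 1 CPM in at least 1 sample and were not compared. The summed level was 3533 CPM in S1, 4389 CPM in S8, 4992 CPM in S12, 4846 CPM in S11, 6015 CPM in S9, 9113 CPM in S3, 9470 CPM in S2 and 7920 CPM in S16. S3, S2 and S16 stood above the other 5, and 28 of the 30 genes were highest in S3 or S2, while 1 was highest in S16. S3 was a 29P sample and S2 a Veh sample, and S12, a Veh sample, was among the lower 5.

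**Figure D3:**
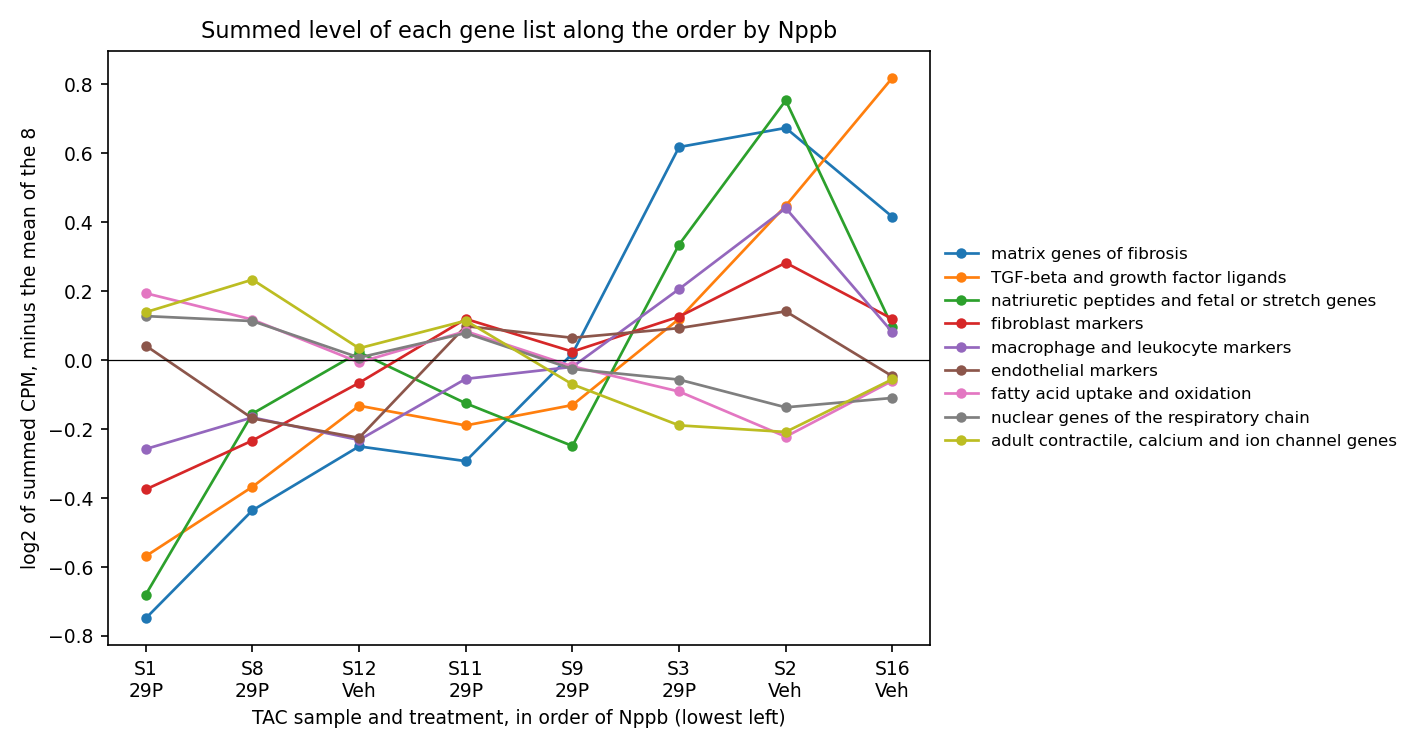
Summed CPM of 9 gene lists in the 8 TAC samples in order of Nppb, as log2 minus the mean of the 8, with the treatment under each sample. Matrix genes rise by a step between S9 and S3 and peak in S2, and fatty acid and respiratory chain genes are lowest in S2. The growth factor list peaks in S16, largely through Ccn2.

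Collagen genes stepped up between S9 and S3. Col1a1, the main fibrillar collagen chain, was 114 CPM in S1, 159 CPM in S8, 180 CPM in S12, 201 CPM in S11, 203 CPM in S9, 341 CPM in S3, 343 CPM in S2 and 220 CPM in S16 (rho = 0.93, r = 0.73, r = 0.98 without S1 and S16). Col5a2, a chain that sets fibril width, went from 56.7 CPM in S1 to 176 CPM in S2, with 138 CPM in S16 (rho = 0.93, r = 0.85). Col8a1, a short-chain collagen, was 102 CPM in S1, 394 CPM in S2 and 261 CPM in S16 (rho = 0.86).

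Proteins that assemble and cross-link the matrix had wide ranges. Lox, the enzyme that cross-links collagen and elastin, was 6.97 CPM in S1, 9.31 CPM in S8, 12.9 CPM in S12, 14.4 CPM in S11, 28.8 CPM in S9, 61.6 CPM in S3, 52.7 CPM in S2 and 38.4 CPM in S16, an 8.83-fold span. Ltbp2, a microfibril protein, spanned 9.21-fold, from 10.99 CPM in S1 to 101 CPM in S2 (rho = 0.90, slope 2.14 ± 0.58 (SE) per unit of log2 Nppb). Postn, a matricellular protein of activated fibroblasts, was 173 CPM in S1, 308 CPM in S8, 411 CPM in S12, 344 CPM in S11, 409 CPM in S9, 1030 CPM in S3, 1153 CPM in S2 and 970 CPM in S16 (rho = 0.86, r = 0.91). In each of the 3 genes S3, S2 and S16 lay above the other 5 samples.

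The list of TGF-β family ligands and other growth factors peaked in S16 when summed, at 1319 CPM against 504 CPM in S1. That peak rested on Ccn2, which was 750 CPM in S16. In S2 the sum was 1019 CPM with 442 CPM of Ccn2, and without Ccn2 the sum was not highest in S16. Of 15 compared, 7 rose, none fell and 14 had a rho above 0, beside 9.28% rising and 66.1% above 0 of all genes compared. The median rho of the list was 0.71 with either scaling, and S16 was highest for 6 of the 15. Ccn2, a matricellular target of TGF-β signalling, was 113 CPM in S1, 139 CPM in S8, 235 CPM in S12, 191 CPM in S11, 201 CPM in S9, 301 CPM in S3, 442 CPM in S2 and 750 CPM in S16 (rho = 0.93, r = 0.96). Its slope was 1.94 ± 0.22 (SE) per unit of log2 Nppb, and removing the treatment means left a rho of 0.98. Gdf15, a stress-induced cytokine, was 1.97 CPM in S1, 1.79 CPM in S8, 3.08 CPM in S12, 2.77 CPM in S11, 5.17 CPM in S9, 8.07 CPM in S3, 10.97 CPM in S2 and 13.4 CPM in S16 (rho = 0.95, r = 0.90). Tgfb2, a ligand of the family, rose from 14.4 CPM in S1 to 39.0 CPM in S16 (rho = 0.93), and Inhbb, an activin subunit, from 2.19 CPM to 8.69 CPM (rho = 0.88, r = 0.80, but r = 0.43 without S1 and S16).

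Some fibroblast and macrophage transcripts rose too, over narrower ranges. Of 10 fibroblast markers 5 rose, none fell and 9 had a rho above 0, beside 9.28% rising and 66.1% above 0 of all genes. Their median rho was 0.80, and 0.71 with TMM factors. Their summed level was 1711 CPM in S1 and 2700 CPM in S2. Not every marker followed the order: Tcf21 had a rho of -0.10 and Gsn one of 0.45. Vim, the intermediate filament of mesenchymal cells, was 319 CPM in S1, 369 CPM in S8, 396 CPM in S12, 409 CPM in S11, 419 CPM in S9, 586 CPM in S3, 586 CPM in S2 and 619 CPM in S16 (rho = 0.98, r = 0.94). Pi16 ran from 70.3 to 183 CPM (rho = 0.90), and Col6a1 and Col6a2, both collagen VI chains, from 108 to 201 CPM and from 112 to 215 CPM (rho = 0.88 each). The part that cell number plays in the matrix genes was not tested.

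Of 17 macrophage and leukocyte markers 6 rose, none fell and all 17 had a rho above 0 (median 0.71 with either scaling). The shares over all genes compared were 9.28% rising and 66.1% above 0. Several followed the order only weakly, with rho between 0.12 and 0.26 for Csf1r, Adgre1, Cx3cr1, Trem2 and Ccr2. Cd14, a lipopolysaccharide co-receptor, was 6.71 CPM in S1, 7.71 CPM in S8, 7.63 CPM in S12, 8.53 CPM in S11, 10.2 CPM in S9, 11.01 CPM in S3, 12.1 CPM in S2 and 17.2 CPM in S16 (rho = 0.98, and in exact order with TMM factors). Lyz2 (222 to 355 CPM), C1qb (49.9 to 91.4 CPM) and C1qa (42.2 to 81.8 CPM) were highest in S2 instead. Cd3e, Cd79a and S100a8 were not at 1 CPM in all 8 and were not compared.

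Vessel markers were mixed. Of 12 endothelial markers Pecam1 and Eng rose (rho = 0.83 each) and none fell, with a median rho of 0.37 that dropped to 0.08 with TMM factors, where none reached the limit. Of 10 smooth muscle and pericyte markers Tagln, Cnn1 and Rgs5 rose and none fell (median rho 0.43), and with TMM factors 1 rose. Over all genes compared 9.28% rose, and 4.27% did with TMM factors, so these small counts are not read as a result about vessels. Abcc9, a potassium channel subunit of pericytes in the same list, had a rho of -0.69 (-0.74 with TMM factors), and Notch3, a receptor of mural cells, one of -0.10. Tagln, an actin-binding protein of smooth muscle and activated fibroblasts, ran from 28.5 CPM in S8 to 69.3 CPM in S16 (rho = 0.98), while Rgs5, a pericyte gene, moved only between 866 and 1189 CPM and had a rho of 0.48 with TMM factors.

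These lists were also compared between TAC and Sham samples. In the limma fit, 31 of 32 matrix genes, 13 of 16 growth factor ligands, 8 of 10 fibroblast markers, 15 of 19 macrophage and leukocyte markers, 10 of 12 endothelial and 5 of 10 smooth muscle and pericyte markers were higher (55.5% of the genes compared were). The smooth muscle and pericyte share was thus below that of all genes compared. With TMM factors the counts were 30, 11, 5, 14, 3 and 3, and the background 16.3%. Ltbp2 was higher by 3.75 on the log2 scale (SE 0.38, adjusted p = 8.79e-06), Postn by 3.18 (SE 0.30, adjusted p = 6.09e-06), Gdf15 by 2.83 (SE 0.38, adjusted p = 7.38e-05) and Ccn2 by 1.73 (SE 0.41, adjusted p = 0.00273). S1, with the lowest Nppb, held 113 CPM of Ccn2, inside the Sham range of 43.4 to 266 CPM, but 173 CPM of Postn, above the Sham range of 35.6 to 98.8 CPM.

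**Figure D4:**
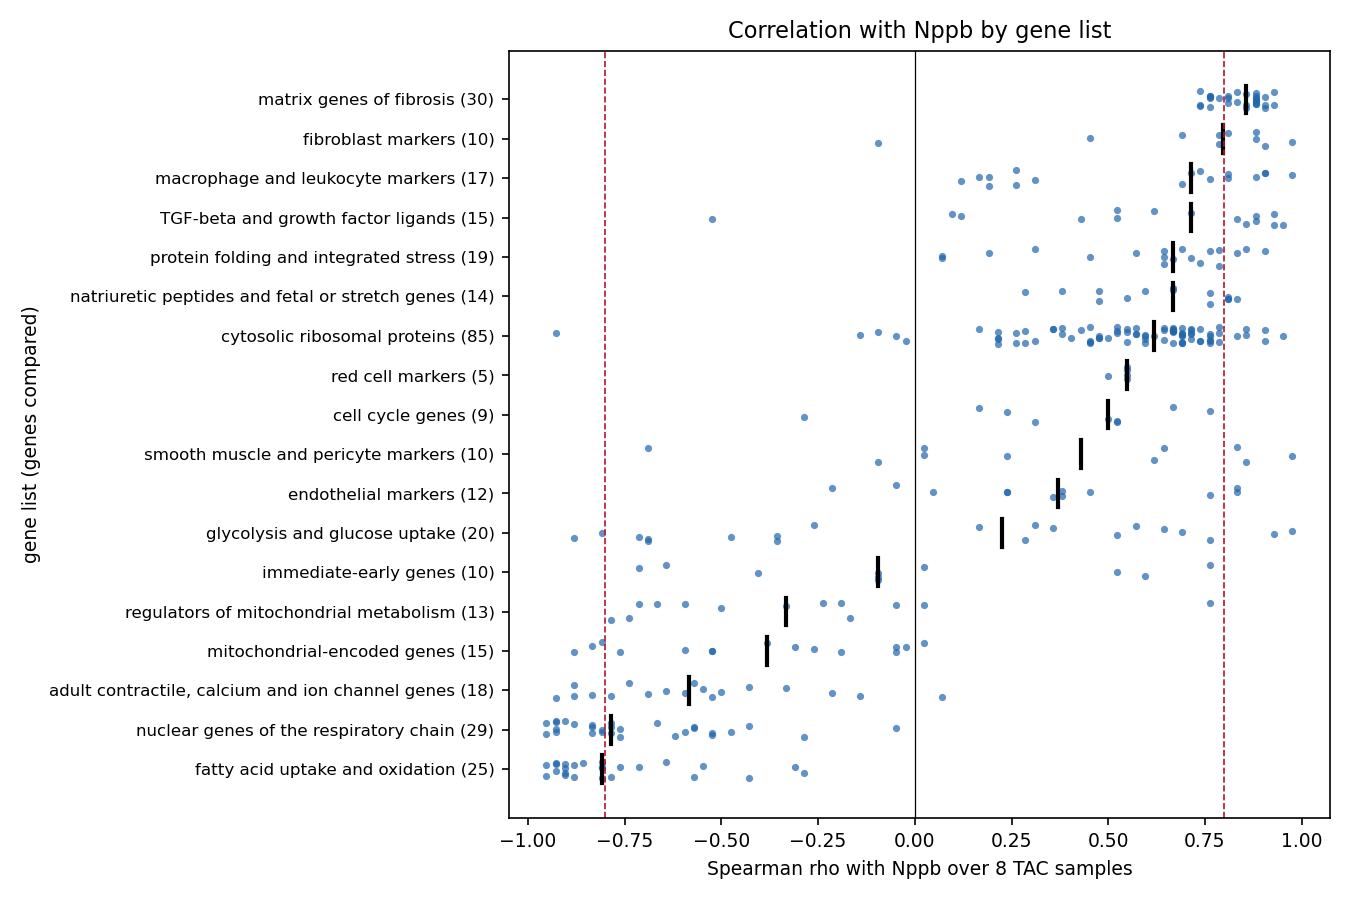
Spearman rho with Nppb over the 8 TAC samples for each gene of 18 lists (points), with the median of each list as a black bar and the limits of -0.8 and 0.8 as dashed lines. Matrix genes lie highest with a median of 0.86, and fatty acid and nuclear respiratory chain genes lowest with medians of -0.81 and -0.79.

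Most fatty acid oxidation genes fell along the order. Of 25 compared, 16 fell, none rose and all 25 had a rho below 0 (median -0.81, and -0.83 with TMM factors). Over all genes compared 2.76% fell and 66.1% had a rho above 0. With treatment means removed the median of the list was -0.64. Summed over the list the level was 15070 CPM in S1, 14292 CPM in S8, 13114 CPM in S12, 13962 CPM in S11, 13009 CPM in S9, 12367 CPM in S3, 11293 CPM in S2 and 12636 CPM in S16. The span was narrow beside that of the matrix genes, S1 was highest for 16 genes and S2 lowest for 16.

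Acsl1, which activates long-chain fatty acids, was 669 CPM in S1, 605 CPM in S8, 499 CPM in S12, 615 CPM in S11, 485 CPM in S9, 482 CPM in S3, 445 CPM in S2 and 419 CPM in S16 (rho = -0.93, r = -0.87). Hadha, the trifunctional enzyme's α-subunit, went from 849 CPM in S1 to 562 CPM in S2 (rho = -0.93), Etfdh, which passes electrons from oxidation to the respiratory chain, from 428 to 292 CPM (rho = -0.95), and Echs1, the short-chain hydratase, from 303 CPM in S8 to 238 CPM in S2 (rho = -0.95). Acadm, the medium-chain dehydrogenase whose promoter is shown above, was 825 CPM in S1 and 533 CPM in S2 (rho = -0.90, slope -0.42 ± 0.09 (SE)). Ces1d, a carboxylesterase that the study names, fell most steeply of these, from 45.8 CPM in S1 to 14.02 CPM in S2 (rho = -0.81, slope -0.97 ± 0.31 (SE); -0.71 with TMM factors, short of the limit).

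Nuclear genes of the respiratory chain changed over a still narrower span. Of 29 compared, 13 fell (2.76% of all genes compared did), none rose and all 29 were below 0 (median rho -0.79). With TMM factors the median was -0.83 and 18 fell, beside 6.67% of all genes compared. With treatment means removed the median was -0.64. Atp5c1, the γ-subunit of ATP synthase, was 716 CPM in S1, 718 CPM in S8, 705 CPM in S12, 684 CPM in S11, 670 CPM in S9, 649 CPM in S3, 622 CPM in S2 and 629 CPM in S16, a range of 1.16-fold in nearly exact order (rho = -0.95). Atp5o (552 to 458 CPM from S1 to S2), Ndufs1 and Ndufs3 behaved alike, with rho of -0.95, -0.93 and -0.93. Of 15 genes encoded by mitochondrial DNA 3 fell (mt-Nd5, mt-Nd6 and mt-Cytb) and none rose, with a median rho of -0.38 (-0.67 with TMM factors).

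None of 13 regulators of mitochondrial metabolism reached the limit. The nearest were Esrrg (rho = -0.79, 30.4 to 42.3 CPM), Pparg (0.76), Perm1 (-0.74) and Ppara (-0.71, 8.32 to 17.4 CPM), and with TMM factors 2 were past the lower limit. Of 20 glycolytic genes 2 rose, a share near the 9.28% of all genes compared, and 2 fell (2.76% of all), with a median rho of 0.23 that turned to -0.21 with TMM factors. Slc2a1, the glucose transporter of most cells, was 7.11 CPM in S1, 7.997 CPM in S8, 9.29 CPM in S12, 10.1 CPM in S11, 10.7 CPM in S9, 11.5 CPM in S3, 13.8 CPM in S2 and 12.1 CPM in S16 (rho = 0.98). Pgam1, the phosphoglycerate mutase of non-muscle tissue, rose from 49.4 CPM in S1 to 82.3 CPM in S16 (rho = 0.93), whereas Ldhb (871 to 689 CPM) and Pfkm (629 CPM in S11 and 474 CPM in S16), the isoforms typical of heart and muscle, fell with rho of -0.88 and -0.81; Pfkm was at -0.74 with TMM factors.

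Among 18 adult contractile, calcium and channel genes 4 fell and none rose (median rho -0.58, and -0.75 with TMM factors, where 8 fell). Over all genes compared 2.76% fell, and 6.67% did with TMM factors. With treatment means removed the median of the list was -0.50. Pln, the inhibitor of the sarcoplasmic calcium pump, was 5037 CPM in S1, 4956 CPM in S8, 4862 CPM in S12, 4438 CPM in S11, 4939 CPM in S9, 4071 CPM in S3, 3847 CPM in S2 and 3718 CPM in S16 (rho = -0.93, r = -0.90). The pump itself, Atp2a2, went from 7481 CPM in S8 to 5363 CPM in S2 (rho = -0.88), the calcium release channel Ryr2 from 749 CPM in S1 to 510 CPM in S3 (rho = -0.83) and Tnni3, adult troponin I, from 2526 to 1939 CPM (rho = -0.88). Kcnd2, Kcnip2, Kcnj2, Kcnj11 and Kcnv2, the potassium channel genes of the list, had rho between -0.79 and -0.43, short of the limit. Kcnj5, a potassium channel subunit that the study names, is outside the list. It was 54.05 CPM in S1, 56.7 CPM in S8, 34.6 CPM in S2 and 23.9 CPM in S16 (rho = -0.90).

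Against Sham, 15 of 25 fatty acid genes, 9 of 29 nuclear respiratory chain genes, 13 of 15 mitochondrial-encoded genes and 7 of 18 contractile and channel genes were lower in TAC by the limma fit (3.27% of the genes compared were), and 1 fatty acid and 3 contractile genes were higher. With TMM factors 21, 28, 15 and 11 were lower, against a background of 16.2%. Acadm was lower by 0.42 on the log2 scale (difference -0.42, SE 0.08, adjusted p = 0.000867), Pln by 0.41 (difference -0.41, SE 0.10, adjusted p = 0.00255) and Ces1d by 1.57 (difference -1.57, SE 0.13, adjusted p = 1.88e-06). Echs1, which had one of the lowest rho of all, was at -0.09 (SE 0.08, adjusted p = 0.40) with library totals and at -0.43 (adjusted p = 0.000939) with TMM factors.

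**Figure D5:**
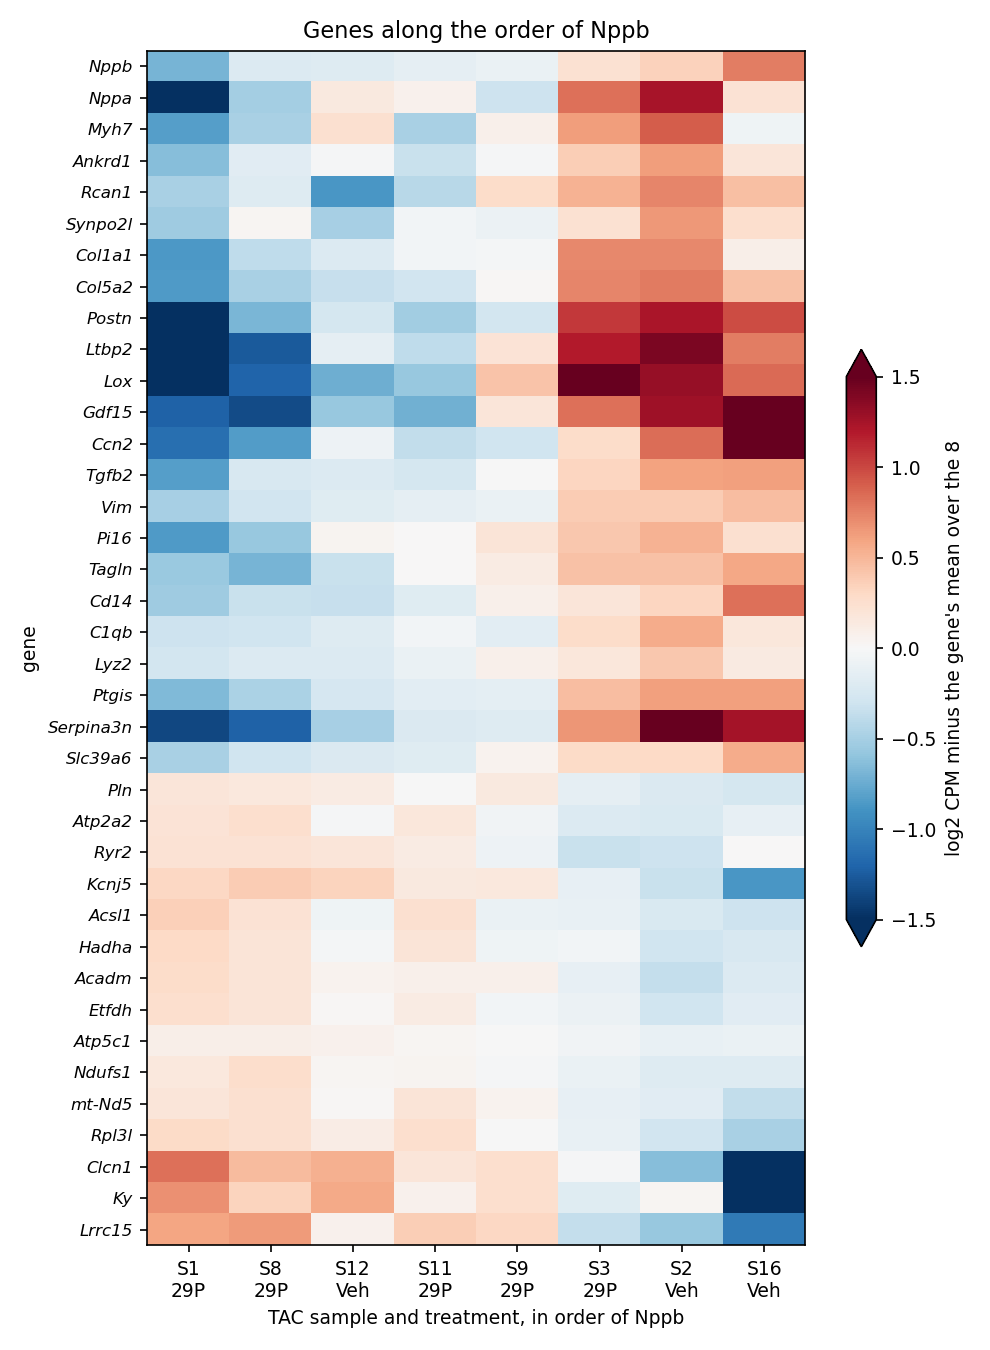
log2 CPM of 38 genes in the 8 TAC samples in order of Nppb, each minus the gene's mean over the 8, red for above and blue for below (scale from -1.5 to 1.5). Nppa, Postn, Ltbp2, Lox, Gdf15, Ccn2 and Serpina3n span the widest ranges of the upper genes, oxidation and respiratory chain genes change little in size, and Clcn1 and Ky are far lower in S16 than in the other samples.

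Of 19 protein folding and stress genes 3 were past the upper limit, none falling and all 19 above 0 (median rho 0.67, and 0.52 with TMM factors). The shares over all genes compared were 9.28% rising and 66.1% above 0. Ddit3, a transcription factor of the integrated stress response, went from 16.1 CPM in S1 to 21.3 CPM in S16 (rho = 0.90, but 0.52 with TMM factors). Xbp1, of the unfolded protein response, had a rho of 0.86, or 0.45 with TMM factors. Hspb1, a small heat shock protein of muscle, ran from 75.1 CPM in S1 to 155 CPM in S2 (rho = 0.83, 0.93 with TMM factors).

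Cytosolic ribosomal protein genes had 6 of 85 rising, 1 falling and a median rho of 0.62 (0.38 with TMM factors, where 2 rose), and both counts were below the shares over all genes compared (9.28% and 2.76%). Rpl12 went from 5.31 CPM in S1 to 10.7 CPM in S16 (rho = 0.95). The gene that fell was Rpl3l, the striated-muscle paralogue of Rpl3, at 129 CPM in S1 and 75.4 CPM in S16 (rho = -0.93). S3 was the highest sample for 64 of the 85. None of 9 cell cycle genes, none of 5 red cell genes and none of 10 immediate-early genes reached the limit. Egr1, an immediate-early transcription factor, ran from 18.2 CPM in S16 to 130 CPM in S12 (rho = -0.64), and S12 was the highest sample for 6 of the 10. Hbb-bt, a β-globin, was 66.5 CPM in S9 and 407 CPM in S2 (rho = 0.55), and all 5 red cell genes were highest in S2 and lowest in S9.

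Over all genes, 11 followed Nppb in exact order, and of 1973 genes that spanned at least 1 on the log2 scale 305 rose and 51 fell. The genes most like Nppb among these were Slc39a6, a zinc transporter (7.15 CPM in S1 to 14.7 CPM in S16), Rab7b, a GTPase of late endosomes (7.73 to 16.5 CPM), and Ptgis, prostacyclin synthase (17.8 to 43.3 CPM), each with a rho of 1. Serpina3n, a secreted protease inhibitor, was 6.75 CPM in S1, 7.51 CPM in S8, 12.3 CPM in S12, 14.9 CPM in S11, 15.2 CPM in S9, 27.5 CPM in S3, 51.9 CPM in S2 and 41.4 CPM in S16 (rho = 0.98, slope 2.21 ± 0.43 (SE)). Ms4a6d, a gene of myeloid cells, went from 2.68 to 9.54 CPM, and Sulf1, a heparan sulphatase, from 29.7 to 70.2 CPM (rho = 0.98 each).

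Clcn1, the chloride channel of skeletal muscle, was the gene most opposite to Nppb at this span, ties in rho being ordered by Pearson r. It was 6.80 CPM in S1, 5.32 CPM in S8, 5.57 CPM in S12, 4.35 CPM in S11, 4.58 CPM in S9, 3.79 CPM in S3, 2.46 CPM in S2 and 1.25 CPM in S16 (rho = -0.95, slope -1.69 ± 0.23 (SE)). Ky, a peptidase of muscle, was 19.9 CPM in S1, 10.96 CPM in S3, 12.6 CPM in S2 and 3.68 CPM in S16 (rho = -0.93), so much of its span lay between S16 and the rest. Gpt, alanine aminotransferase (18.95 to 9.06 CPM from S1 to S16), Extl1, a heparan sulphate enzyme (20.8 CPM in S8 to 8.69 CPM in S16), and Lrrc15 (29.9 CPM in S8 to 9.22 CPM in S16) had rho between -0.95 and -0.90. Levels under 10 CPM stand for fewer than about 200 reads at these depths.

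Of the 1232 genes that rose, 1040 were higher in TAC than Sham and 2 lower, and of the 366 that fell, 128 were lower and 11 higher (limma adjusted p of 0.05 or less; 55.5% higher and 3.27% lower among all genes compared). With TMM factors 505 of the rising genes were higher and 19 lower, and 280 of the falling genes were lower and none higher, beside 16.3% and 16.2%. Clcn1 was lower in TAC by 0.82 (difference -0.82, SE 0.26, adjusted p = 0.0139). Ky, which fell with Nppb, did not differ between TAC and Sham beyond its error (difference 0.01, SE 0.36, adjusted p = 0.981), nor did Lrrc15 (-0.30, SE 0.25, adjusted p = 0.31) or Ms4a6d (0.59, SE 0.32, adjusted p = 0.125).

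No gene passed the adjusted threshold for 29P against Veh within TAC in the limma fit, and at an unadjusted p of 0.05 163 of 16218 were higher and 266 lower. Among the genes compared, 0.851% were higher and 1.62% lower at that threshold; of the rising genes 49 were lower and none higher, and of the falling genes 27 were higher and none lower. Of 25 fatty acid genes 12 were higher and of 5 red cell genes 5 lower at that threshold. Treatment and order share the same 8 samples, with 2 of the 3 Veh samples at the top, so both descriptions overlap by construction. Of the 13 genes that the study names as lower with 29P 4 rose (Ace, Sulf1, Postn and Col8a1) and none fell, and of 13 named as higher 10 fell and none rose; those lists were chosen by the study on these samples. Ace, angiotensin-converting enzyme, was 72.6 CPM in S1, 77.8 CPM in S8, 113 CPM in S12, 103 CPM in S11, 84.7 CPM in S9, 108 CPM in S3, 168 CPM in S2 and 120 CPM in S16 (rho = 0.81). The 3 Veh samples were the highest. Within the 5 TAC 29P samples the rho of Ace was 0.90, and with treatment means removed over the 8 it was 0.60.

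The same gradient was tested in the 8 Sham samples, which the ranking did not use. The 3 Sham 29P samples had the 3 lowest Nppb levels there, 96.8 to 160 CPM against at least 202 CPM in Sham Veh, so order and treatment cannot be told apart among them. No gene of 12441 passed (Spearman, exact permutation p over 40320 orders, smallest adjusted p = 0.463), while 884 were at or below an unadjusted p of 0.05. With 8 samples even an exact order gives a p too large for 1 gene to pass alone over 12441 genes. The test could therefore hardly call any gene, and its outcome does not show that no gradient was present. Of 1169 rising genes measured there, 79.1% had a rho above 0 with Nppb among Sham samples, beside 55.1% of all, and of 362 falling genes 78.2% had one below 0, beside 42.4% of all. Without S19 and S20, which hold atrial transcripts, these shares were 66.1% beside 63.8% and 63.6% beside 36.2% over 6 samples. The matrix list had a median rho of 0.62 among Sham samples, the natriuretic and stretch list 0.43, the fatty acid list -0.38 and the nuclear respiratory chain list 0.17, the last opposite in sign to its -0.79 among TAC samples; whether those differ was not tested. Among Sham samples Nppa had a rho of 0.95 with Nppb (exact permutation p = 0.00114, not past adjustment) and Myh7 one of -0.05 (exact permutation p = 0.935).

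S18, left out of the ranking, had 717 CPM of Nppb, between S9 and S3. Of the 1232 rising genes 870 lay within the range of the 8 ranked samples in S18, and of the 366 falling genes 281 did. The share over all genes compared was not computed, so these counts do not show whether S18 followed the order. Its Postn (581 CPM) and Col1a1 (265 CPM) were also between those of S9 and S3, while its Ccn2 (724 CPM) was close to S16 and its Acta1 (1418 CPM) was below all 8.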

How the data were processed

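Poly(A) RNA of the left ventricular apex was sequenced. Per the labels and methods the authors used STAR 2.3.7 and Partek with the build mm10, and deposited CPM values with 0.0001 added, which was subtracted here. The counting tool and strand setting are not given in the sources used here. Depth was estimated from the steps between low values, 14.2 to 23.8 M reads per sample; 83.7% to 85.9% of low values were whole within 0.05 reads, so read counts were not restored. Genes with at least 1 CPM in all 8 ranked samples were compared with Nppb by Spearman's rho on log2 CPM, with no p. TAC against Sham and 29P against Veh came from 1 limma 3.58.1 fit (R 4.3.3) of log2(CPM + 0.1), with 4 group means and a variance trend, over 16218 genes with at least 0.5 CPM in at least 3 samples and 16 samples (S18 left out), with Benjamini-Hochberg adjustment. Fold changes of low genes are understated on that scale. TMM factors were computed on CPM without weights, with trims of 30% (ratios) and 5% (levels). Permutation tests, correlations and figures used Python 3.11.15, numpy 2.4.6, pandas 2.3.3 and scipy 1.17.1, and both kinds of fit were tested on simulated data. Promoters are RefSeq's, and 63 of 83 genes named matched. Members and lists were chosen with earlier results of these data known. Named were Nppb, its stretch gene list, up to 4 genes of each other list by the size of rho, and up to 12 genes each way that span at least 1 on the log2 scale; genes the study names, Acadm, Postn and Col8a1 among them, were added after their values were seen. The labels do not say whether animals shared a litter or surgery day.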

Additional observations from a re-analysis of the deposited data

Results flagged for a closer look

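Among 88 comparisons of samples within a group, 1 sample lay apart from its group by Dixon's test, while chance marks about 1 in 20 groups. This was Nppb in Sham Veh S19, at 447 CPM against 202 to 226 CPM in the other 4 Sham Veh samples. S19 and S20 also held atrial transcripts. The part of these in the value was not tested.

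Signal outside the ranking was seen in TAC 29P S18, whose 4 atrial markers summed to 1529 CPM, against 1.28 to 5.75 CPM in the 8 ranked samples. Sham Veh S19 and S20 held 2543 and 2032 CPM of them. Of 83 genes tested none had a 29P effect that differed between TAC and Sham in the limma fit at an adjusted p of 0.05, and over all genes 0 did, with 580 at an unadjusted p of 0.05.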

How the results depend on the processing

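Counts of rising and falling genes moved with the limit on rho, the scaling and the choice of samples, and the causes were not tested. Against 1232 rising and 366 falling genes, TMM factors gave 566 and 884, and ranking by Myh7 gave 757 and 100. The 5 TAC 29P samples alone gave 2708 and 663 (fewer samples reach the limit more easily), the first run of animal numbers 2539 rising, and treatment means removed 618 rising. Alternatives chosen after seeing the data gave 2084 rising without S1 and S16, 609 falling with totals that leave out mitochondrial-encoded genes, and 405 and 131 at a limit of 0.9. Leaving out each sample gave 1088 to 1988 rising, the last without S16, and 327 to 528 falling. The difference of Nppb with 29P within TAC ranged from -0.74 (without S12, exact permutation p = 0.0476) to -0.26 (without S16, exact permutation p = 0.381), and within Sham, where alternatives were added after seeing the data, from -1.17 to -0.77, with exact permutation p of 0.0286 to 0.0952 (without S15 the difference was -0.81 and p was 0.0952) and -0.74 (p = 0.1) without the samples holding atrial transcripts.

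TAC against Sham gave 8112 higher and 560 lower genes, and 2474 and 2380 with TMM factors; of the rising genes 505 in place of 1040 were then higher, and of the falling genes 280 in place of 128 lower. The call of 29P within TAC was 0 both ways except by the unadjusted p, which gave 163 and 266. The TAC difference of Rgs5 turned from 0.34 to -0.0056 with TMM factors. Of 64 named genes past the limit all 64 kept their sign under the 22 or 23 alternatives run for each, and none of them stayed past the limit in every one. These genes were named largely by the size of rho in the 8 samples, and the alternatives reuse those samples. The kept sign therefore adds no separate evidence. No paired analysis was possible because sample numbers are unique to 1 sample and the groups share none. With 8 samples a single sample can move a rank correlation widely, and levels near 1 CPM rest on about 20 reads.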
